A study of Homo sapiens with 24 samples.

Results

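The 10 genes described here encode Jumonji C (JmjC) histone demethylases outside the KDM6 pair, namely KDM2A, KDM2B, KDM3A, KDM3B, JMJD1C, KDM4A, KDM4B, KDM4C, KDM5A and KDM5B. They were taken by gene symbol from a given list, and all 10 matched 1 row in each of 4 comparison tables, of 23874 genes that every table lists. The study exposed 4 established human neuroblastoma lines to GSK-J4, a cell-permeable inhibitor built against the H3K27 demethylases KDM6A and KDM6B and also known to act on KDM5 enzymes at higher concentration. The treated groups received 1 µM for 72 hours and the groups set against them were untreated, with 3 libraries per group and 24 in all. LAN5 and IMR5 carry amplified MYCN and are labelled sensitive, SK-N-FI has MYCN labelled wildtype and is also sensitive, and SK-N-BE(2) has amplified MYCN and is labelled resistant. Every group is 1 cell line, so a difference between lines describes these lines and not a class of tumours.

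JmjC demethylases are iron-dependent dioxygenases that use molecular oxygen and 2-oxoglutarate to remove methyl groups from histone lysines. KDM2 enzymes act mainly on H3K36, KDM3 enzymes on H3K9, KDM4 enzymes on H3K9 and H3K36, and KDM5 enzymes on H3K4. Several of them, KDM3A and KDM4B above all, are known target genes of the hypoxia-inducible factor HIF, whose own hydroxylases belong to the same dioxygenase superfamily. In neuroblastoma KDM4B has been described as a partner of N-Myc.

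The tables used here give 1 mean over a line's 6 libraries, 1 log2 fold change and 1 standard error per gene, and no value of a single library. Depth per library is therefore unknown, and so is whether the groups overlap. The fold changes are read as GSK-J4 over untreated, since the files leave the direction open to reading and it rests here on BBC3, MT2A and SLC30A1. The SK-N-FI table was matched to its line by a similar short name. Fold changes printed below are prior-removed, meaning that the shrinkage toward 0 in the deposited values was undone so that lines can be set side by side. They stand with standard errors, while the adjusted p-values are those of the authors' deposited tables, called at 0.05. A level is a gene's part of the summed mean counts of its table, in parts per 1000000 (ppm). A level for a single group is implied by the mean and the fold change, and has no error of its own. Tables were normalized separately, so levels were not tested between lines.

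The lines carried the adrenergic genes of neuroblastoma, with up to 10 markers (TH was not listed for IMR5 and SK-N-FI) summing to at least 1146 ppm in treated and 1517 ppm in untreated groups. Schwann and glial markers summed to at most 23.4 ppm in treated and 9.18 ppm in untreated groups, and SOX10 was listed in no table. Immune markers reached 2.16 ppm in treated and 1.86 ppm in untreated groups, and endothelial markers 8.14 ppm in treated and 9.65 ppm in untreated groups. Fibroblast and muscle markers summed to 2307 ppm in treated and 1910 ppm in untreated SK-N-BE(2), mainly from LUM and DCN, while in the other lines they stayed at or below 213 ppm in treated and 163 ppm in untreated groups. The adrenergic markers themselves moved: 9 of 10 fell in LAN5 cells, 5 fell and 3 rose of 9 in IMR5 cells, 7 fell and 1 rose of 9 in SK-N-FI cells, and 7 of 10 fell in SK-N-BE(2). A list of 14 mitotic genes fell in 14 cases in LAN5 cells, 12 in IMR5 cells and 13 in SK-N-FI cells, and in SK-N-BE(2) 1 member, KIF20A, was higher. Beside these counts, the share called of all genes whose mean count reached 100 was 67% for LAN5 cells and 69.6% for IMR5 cells. That share was 49.1% for SK-N-FI cells, while SK-N-BE(2) had 2.87%. The 5 falls and 3 rises of adrenergic markers in IMR5 cells are not far from that background. Shares by direction were not taken for genes with this mean. The part of the adrenergic and mitotic shifts in the demethylase values was not tested. In such bulk samples fewer cells of a kind and less RNA per cell cannot be told apart.

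Promoter windows of KDM3A and KDM4B are shown because KDM3A had the widest range of fold changes over the lines and both genes are known HIF targets. KDM3A has 2 overlapping windows, of which the first is given. The windows run from 250 bases before to 50 bases after a start site of the gene (RefSeq, GRCh38.p14). Capitals mark the core of the hypoxia response element, ACGTG or GCGTG on either strand. The KDM3A window lies at chr2:86441121-86441420 on the + strand and the KDM4B window at chr19:4968863-4969162 on the + strand.
KDM3A: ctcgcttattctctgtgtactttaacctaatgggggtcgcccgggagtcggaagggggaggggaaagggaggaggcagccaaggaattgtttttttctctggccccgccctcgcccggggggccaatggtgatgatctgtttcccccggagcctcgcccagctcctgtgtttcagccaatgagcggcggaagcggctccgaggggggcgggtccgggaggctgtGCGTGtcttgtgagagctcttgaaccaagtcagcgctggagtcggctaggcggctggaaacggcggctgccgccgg
KDM4B: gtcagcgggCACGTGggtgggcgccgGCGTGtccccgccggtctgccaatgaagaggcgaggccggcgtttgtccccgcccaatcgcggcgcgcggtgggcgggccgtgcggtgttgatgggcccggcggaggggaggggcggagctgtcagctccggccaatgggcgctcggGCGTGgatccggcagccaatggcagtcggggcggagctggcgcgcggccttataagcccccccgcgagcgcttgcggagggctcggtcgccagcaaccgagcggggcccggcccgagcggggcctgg
The KDM3A window holds 1 match, 26 bases before the start site, and the KDM4B window holds 4, of which 2 are the overlapping strands of 1 E-box, CACGTG. Such a core is in 13 of the 17 windows of the 10 genes, against 48.4% of 35116 windows over all genes, and 9 of the 10 genes have it in at least 1 window. KDM3B is the gene without one. The 2 overlapping windows of KDM3A hold the same match, so it is counted in both. The 48.4% is a share of windows, and several of the 10 genes have more than 1 window. A share of all genes with a core in at least 1 window was not taken, so the count of 9 has no background. The ATF4-CHOP core TGATGNAA was in none of the 17 windows and in 3.62% of all windows, and E-boxes were in 3 of the 17 windows and in 7.26% of all windows.

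The demethylases did not share 1 direction in the treated cells. In LAN5 4 of the 10 genes rose and 2 fell, where 41.7% of 25753 tested genes were called, 22.5% as higher and 19.2% as lower. In IMR5 2 rose and 5 fell, where 44.1% of 22594 tested genes were called, 22.6% as higher and 21.6% as lower. In SK-N-FI 5 rose and none fell by the authors' Wald test (0 fell at an unadjusted p under 0.05 as well), where 31.6% of 22576 tested genes were called, 16.8% as higher and 14.8% as lower. In SK-N-BE(2) none of the 10 genes was called by the authors' Wald test, where 2.48% of 13407 tested genes were called, 1.62% as higher and 0.858% as lower. KDM3A was the gene with an unadjusted p under 0.05 there, 1 of 10. Most of these genes are well expressed, and of genes whose mean reached 100 the share called was 67% for LAN5 cells, 69.6% for IMR5 cells, 49.1% for SK-N-FI cells and 2.87% for SK-N-BE(2). Counts of 6, 7, 5 and 0 of 10 are near that background and are no result about the family. The median log2 fold change of the 10 genes was 0.09 for LAN5 cells, -0.11 for IMR5 cells, 0.37 for SK-N-FI cells and -0.01 for SK-N-BE(2), beside medians over all genes whose mean reached 100 of -0.09, -0.01, 0.00 and 0.00 in the same order.

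No gene of the 10 was called in the same direction in LAN5, IMR5 and SK-N-FI cells, also at an unadjusted p under 0.05, against 10.8% of 18599 genes tested in all 3 lines. KDM2A, KDM3A and KDM5A were called in opposite directions in at least 2 of these lines, as were 12.6% of the 18599 genes. Both shares include weakly expressed genes, where calls are fewer, and were not taken for well expressed genes alone. Neither count is therefore a result about the family.

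**Figure D1:**
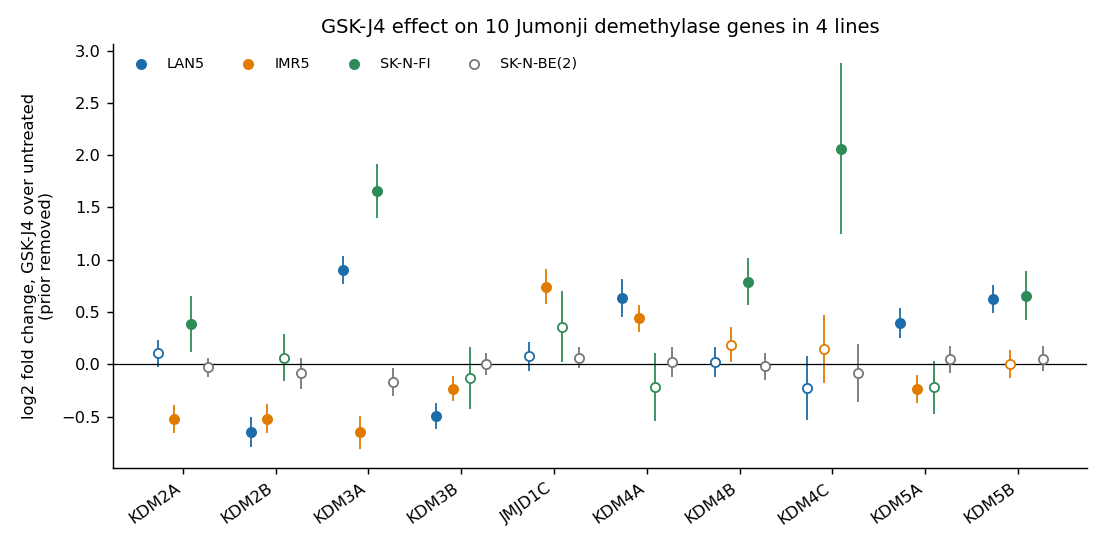
Prior-removed log2 fold change (GSK-J4 over untreated, y axis) of each gene (x axis) in 4 lines, with 95% intervals; filled points have an adjusted p under 0.05 and open points do not. KDM3A spans -0.65 (IMR5) to 1.66 (SK-N-FI), and no SK-N-BE(2) point is filled.

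KDM3A, which removes mono- and dimethylation from H3K9 (chromosome 2, 86440647 to 86492716 on GRCh38, + strand, ENSG00000115548), had the widest range of fold changes over the 4 lines, 2.31 on the log2 scale beside 2.29 for the weakly expressed KDM4C. In LAN5 it stood at 174 ppm in treated and 92.8 ppm in untreated cells, a log2 fold change of 0.91 ± 0.0678 (from the authors' deposited table, adjusted p = 3.99e-39). SK-N-FI had 254 ppm in treated and 80.6 ppm in untreated cells, a change of 1.66 ± 0.131 or 3.15-fold (from the authors' deposited table, adjusted p = 2.45e-34). Treated IMR5 cells went the other way, with 86.6 ppm against 135.9 ppm in untreated cells and a log2 change of -0.65 ± 0.081 (from the authors' deposited table, adjusted p = 1.1e-14). In SK-N-BE(2) the gene was at 58.3 ppm in treated and 65.5 ppm in untreated cells, -0.17 ± 0.0677 (unadjusted p = 0.0134, from the authors' deposited table, adjusted p = 0.239). It thus rose in 2 sensitive lines and fell in the third. Its rise in SK-N-FI lay at the 99.1 percentile of genes whose mean reached 100, and its fall in IMR5 at the 13.8 percentile. Before treatment its implied level differed 2.07-fold between the highest line, IMR5, and the lowest, SK-N-BE(2), close to the median of 2.14-fold over 8982 genes.

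A list of 30 genes that HIF is known to induce, KDM3A and KDM4B not included, is set beside these values. Of all genes whose mean reached 100, 67% were called for LAN5 cells and 69.6% for IMR5 cells. For SK-N-FI cells the share was 49.1%, and for SK-N-BE(2) it was 2.87%. The medians over all genes with that mean were -0.09, -0.01, 0.00 and 0.00 in the same order. With such shares, the numbers called for LAN5 and IMR5 cells are by themselves no result about the list. In LAN5 17 of 28 tested genes rose and 5 fell, with a median log2 fold change of 0.48. In IMR5 10 of 28 rose and 13 fell, with a median of -0.09 and a summed level of 3739 ppm in treated against 6476 ppm in untreated cells. In SK-N-FI 29 of 30 rose and 1 fell, with a median of 1.27 and 8771 ppm in treated against 4287 ppm in untreated cells. In SK-N-BE(2) 1 of 27 fell and none rose, with a median of 0.01; the gene that fell, EGLN3, one of the HIF hydroxylases, had -0.30 ± 0.0824. EGLN3 was also the gene that fell in SK-N-FI, at -0.54 ± 0.125. The 4 lines stand in the same order by the median of the list and by KDM3A, with SK-N-FI highest, then LAN5, SK-N-BE(2) and IMR5. In that order the place of SK-N-BE(2) above IMR5 rests on list medians of 0.01 and -0.09, both near those of all genes. KDM4B does not follow that order, with 0.79 in SK-N-FI, then 0.19 in IMR5 cells, 0.02 in LAN5 and -0.02 in SK-N-BE(2). This is a description over 4 lines, and the part of a hypoxia response in the values of both genes was not tested. The list was not uniform in IMR5 cells. There VEGFA, the angiogenic growth factor, rose by 2.11 ± 0.0993 and PFKFB3, a regulator of glycolysis, fell by 1.03 on the log2 scale. BNIP3L, VEGFA, NDRG1, P4HA1, P4HA2, INSIG2, ERO1A, ANGPTL4 and BHLHE40 were called higher in all 3 sensitive lines, including IMR5, where KDM3A fell. PFKFB3 had the largest deposited change of the list for SK-N-FI, 5.15 ± 0.251 after removal of the prior, and BHLHE40, a transcriptional repressor, that for LAN5 cells, 6.55 ± 0.406. Over the 4 lines, the genes with fold changes nearest to those of KDM3A were SMAD7, at a Euclidean distance of 0.327, the glycolytic gene ALDOA, itself on the list, at 0.446, and TEKT4P2, a pseudogene whose reads may be shared with its parent gene, at 0.603, a likeness over 4 values only.

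**Figure D2:**
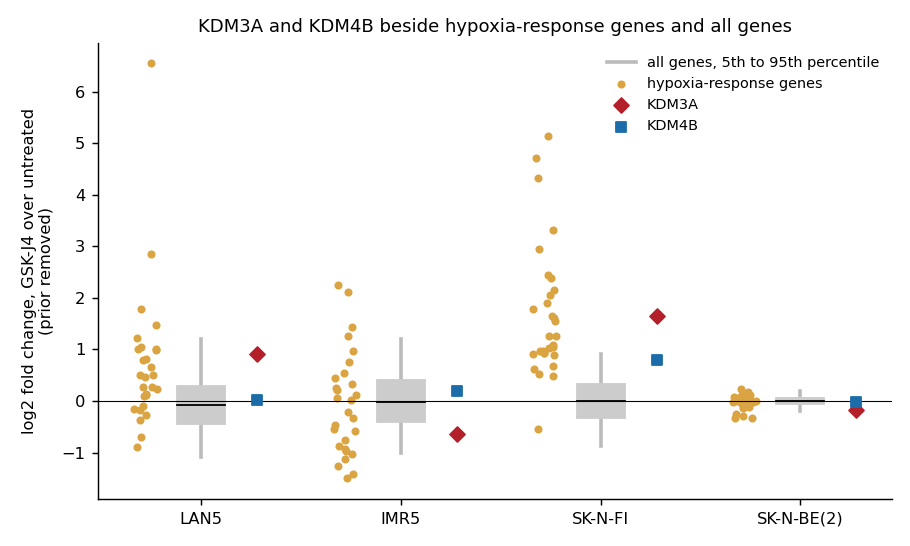
Prior-removed log2 fold change (GSK-J4 over untreated, y axis) in each line for the hypoxia-response list (dots), KDM3A, KDM4B and all genes whose mean reached 100 (grey line, 5th to 95th percentile; box, quartiles; black bar, median). KDM3A is at 0.91 for LAN5 cells, -0.65 for IMR5 cells, 1.66 for SK-N-FI cells and -0.17 for SK-N-BE(2), while KDM4B stands apart from 0 most clearly in SK-N-FI, at 0.79.

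The other enzymes of the KDM3 group took other courses. KDM3B, an H3K9 demethylase encoded in the long arm of chromosome 5 (138352596 to 138437028, + strand, ENSG00000120733), had 152 ppm in treated and 214 ppm in untreated LAN5 cells and fell by 0.49 on the log2 scale (SE 0.0651, from the authors' deposited table, adjusted p = 3.75e-13). In IMR5 it had 184 ppm in treated and 216 ppm in untreated cells, a change of -0.23 ± 0.0622 (from the authors' deposited table, adjusted p = 0.000655). SK-N-FI gave -0.13 ± 0.152 and SK-N-BE(2) 0.00 ± 0.0522, neither called. JMJD1C, a large member of the group whose demethylase activity is debated (chromosome 10, 63167221 to 63521850, - strand, ENSG00000171988), rose in IMR5 cells, to 185 ppm in treated cells against 111 ppm in untreated cells, 0.74 ± 0.0859 (from the authors' deposited table, adjusted p = 7e-17). Its changes were 0.08 ± 0.0713 in LAN5 cells, 0.36 ± 0.173 in SK-N-FI cells (from the authors' deposited table, adjusted p = 0.1) and 0.07 ± 0.0495 in SK-N-BE(2). KDM3A, KDM3B and JMJD1C were thus called higher, lower and not at all in LAN5 cells, and lower, lower and higher in IMR5.

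KDM2B, a CpG-binding H3K36 demethylase that brings the PRC1.1 complex to unmethylated CpG islands (chromosome 12, 121429097 to 121581015, - strand, ENSG00000089094), fell in both sensitive lines with amplified MYCN. It had 57.5 ppm in treated and 89.7 ppm in untreated LAN5 cells, -0.64 ± 0.0731 (from the authors' deposited table, adjusted p = 1.78e-17), and 61.6 ppm in treated and 88.3 ppm in untreated IMR5 cells, -0.52 ± 0.0722 (from the authors' deposited table, adjusted p = 5.79e-12). SK-N-FI had 50.3 ppm in treated and 48.1 ppm in untreated cells, 0.06 ± 0.114, and SK-N-BE(2) had 46.4 ppm in treated and 49.2 ppm in untreated cells, -0.08 ± 0.0757. The untreated level was 1.87-fold higher in LAN5 than in SK-N-FI. KDM2A, its close relative without a place in PRC1.1 (chromosome 11, 67119269 to 67258087, + strand, ENSG00000173120), took another course. It fell in IMR5 cells, with 80.7 ppm in treated and 116 ppm in untreated cells, -0.52 ± 0.069 (from the authors' deposited table, adjusted p = 4.74e-13). It rose in SK-N-FI, with 161 ppm in treated and 123 ppm in untreated cells, 0.39 ± 0.136 (from the authors' deposited table, adjusted p = 0.0174). LAN5 gave 0.10 ± 0.0663 and SK-N-BE(2) -0.03 ± 0.0474.

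Within the KDM4 group, KDM4A (chromosome 1, 43650158 to 43705515, + strand, ENSG00000066135), which acts on trimethylated H3K9 and H3K36, rose in LAN5 and IMR5. LAN5 had 51.2 ppm in treated and 32.9 ppm in untreated cells, 0.64 ± 0.0922 (from the authors' deposited table, adjusted p = 3.9e-11), and IMR5 had 138 ppm in treated and 101 ppm in untreated cells, 0.44 ± 0.0654 (from the authors' deposited table, adjusted p = 1.07e-10). SK-N-FI gave -0.22 ± 0.168 and SK-N-BE(2) 0.02 ± 0.0723. KDM4A shares exonic bases with the antisense gene KDM4A-AS1, and whether counting used strand is not given in the sources used here, so reads of this pair may be mixed. The same holds for KDM2B with RNF34 and AC145422.1, JMJD1C with JMJD1C-AS1 and KDM5A with CCDC77. On the same strand, where no stranded count can separate them, KDM4A also shares exonic bases with AL451062.3 and KDM4C with AL354707.1. KDM4B (chromosome 19, 4969113 to 5153595, + strand, ENSG00000127663), which acts on trimethylated H3K9, rose in SK-N-FI, with 69.1 ppm in treated and 39.9 ppm in untreated cells, 0.79 ± 0.115 (from the authors' deposited table, adjusted p = 1.5e-10). In IMR5 it had 0.19 ± 0.0862 (from the authors' deposited table, adjusted p = 0.0645), in LAN5 cells 0.02 ± 0.0733, and SK-N-BE(2) gave -0.02 ± 0.0656.

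KDM4C (chromosome 9, 6720863 to 7175648, + strand, ENSG00000107077), a relative with the same substrates as KDM4A, had the lowest level of the 10 genes in every line. Its mean normalized count in the authors' deposited tables was 172 in LAN5 cells, 149 in IMR5 cells, 24.2 in SK-N-FI cells and 179 in SK-N-BE(2). Its level in SK-N-FI was 2.43 ppm in treated and 0.581 ppm in untreated cells, 2.06 ± 0.416 (from the authors' deposited table, adjusted p = 7.24e-06), the largest fold change of the 10 genes and the one at the lowest level. The deposited, shrunken value was 1.67 ± 0.337 in the authors' deposited table. The other lines gave -0.22 ± 0.156 in LAN5 cells, 0.14 ± 0.166 in IMR5 cells and -0.08 ± 0.14 in SK-N-BE(2), none called. In treated SK-N-FI cells the gene was still below its level in both groups of every other line, where the lowest was 7.3 ppm in untreated IMR5.

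Of the KDM5 enzymes, which remove methylation from H3K4, KDM5B (chromosome 1, 202724495 to 202809470, - strand, ENSG00000117139) rose in LAN5 and SK-N-FI cells. LAN5 had 157 ppm in treated and 101.5 ppm in untreated cells, 0.63 ± 0.0684 (from the authors' deposited table, adjusted p = 7.24e-19), and SK-N-FI had 137 ppm in treated and 86.8 ppm in untreated cells, 0.66 ± 0.121 (from the authors' deposited table, adjusted p = 7e-07). In IMR5, where it was most abundant, it had 265 ppm in treated and 264 ppm in untreated cells, 0.01 ± 0.0695, and SK-N-BE(2) gave 0.05 ± 0.0612. KDM5A, first known as the RB-binding protein RBP2 (chromosome 12, 280129 to 389454, - strand, ENSG00000073614), rose in LAN5 cells, with 136 ppm in treated and 103 ppm in untreated cells, 0.40 ± 0.0739 (from the authors' deposited table, adjusted p = 4.61e-07). It fell in IMR5 cells, with 116 ppm in treated and 136 ppm in untreated cells, -0.24 ± 0.0686 (from the authors' deposited table, adjusted p = 0.00158). SK-N-FI gave -0.22 ± 0.129 and SK-N-BE(2) 0.05 ± 0.0661.

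**Figure D3:**
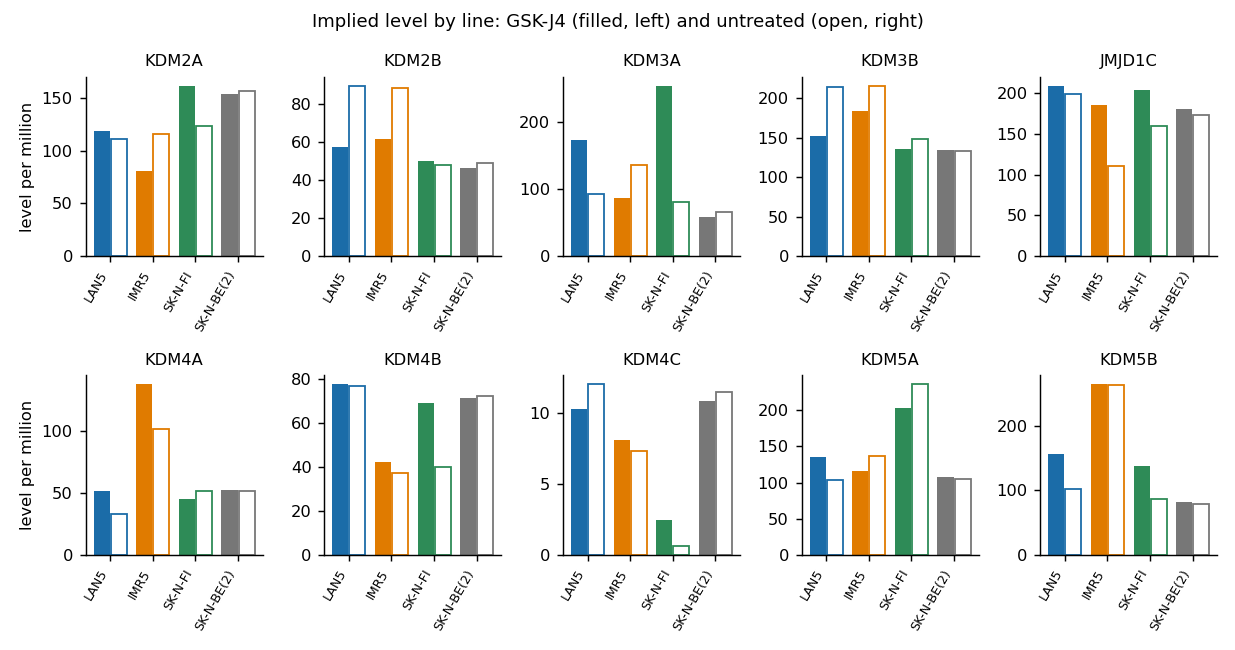
Implied level (ppm of the table's summed mean counts, y axis from 0, a scale of its own for each gene) in GSK-J4-treated (filled bars) and untreated (open bars) cells of 4 lines; no error is available for these bars. KDM3A reaches 254 ppm in treated SK-N-FI, KDM4A and KDM5B are highest in IMR5 cells, and KDM4C is lowest in SK-N-FI.

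For SK-N-BE(2) the 95% intervals limit what the missing calls can hide. The interval of KDM3A ran from -0.30 to -0.03, that of KDM2B from -0.23 to 0.06 and that of KDM5B from -0.07 to 0.17 on the log2 scale. The widest was that of KDM4C, from -0.36 to 0.19. The estimates of KDM3A and KDM5B in LAN5 and SK-N-FI cells lie above the intervals of the same genes in SK-N-BE(2). Below them lie KDM3A in IMR5, at -0.65, and KDM2B in LAN5 and IMR5, at -0.64 and -0.52. KDM5B in IMR5, at 0.01, and KDM2B in SK-N-FI, at 0.06, lie within. The intervals do not show that the genes were unaffected.

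Levels of different genes were compared per kilobase of the longest coding transcript. By this measure KDM3A led in LAN5 at 27.1 and in SK-N-FI at 34 ppm per kilobase, KDM3B led in IMR5 at 29.3, and KDM2A led in SK-N-BE(2) at 22.3. KDM4C was last in all 4 lines, from 0.323 in SK-N-FI cells to 2.4 in LAN5. Summed over the 10 genes, the level was 1143 ppm in treated and 1032 ppm in untreated LAN5 cells, and 1167 ppm in treated and 1213 ppm in untreated IMR5 cells. SK-N-FI had 1262 ppm in treated and 976 ppm in untreated cells, and SK-N-BE(2) had 898 ppm in treated and 897 ppm in untreated cells.

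Levels before treatment were set side by side between lines. The implied untreated level of the highest line was 1.42 times that of the lowest for KDM2A, 1.61 times for KDM3B and 1.79 times for JMJD1C, beside a median of 2.14 times over 8982 genes whose mean reached 100 in every table. KDM4A, at 3.08 times, and KDM5B, at 3.36 times, lay above the upper quartile of 3.03, and both were highest in IMR5. KDM4C spanned 20.7 times, highest in LAN5 cells and lowest in SK-N-FI. That span depends on its fold change in SK-N-FI, with a 95% interval from 1.25 to 2.88 at a mean count of 24.2. By the means over both groups KDM4C spanned 7.42 times between the same lines. It is not among the 8982 genes.

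Neighbouring genes on the chromosome were looked at for these 3 after their levels had been seen. KDM4A in untreated IMR5 was 0.97 above its own median of the 4 lines on the log2 scale. Of its neighbours within 1 Mb, 16 of 17 were above theirs, with a median of 0.38, beside -0.03 for all genes with that mean. The share of all genes above their own median was not taken, so the counts of neighbours have no background. KDM5B was 1.49 above its median in IMR5 cells, and 10 of 15 neighbours were above theirs, with a median of 0.19. KDM4C in untreated SK-N-FI stood at -4.01 against its median, while 2 of 6 neighbours were above theirs and the neighbours' median was -0.43. KDM4C itself falls short of the mean asked of neighbours, with 24.2 in SK-N-FI. A neighbour as low there could not enter, so these 6 cannot show whether the region is low. Gene copy number was not measured.

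The effects were then compared between lines by a two-sided Wald test on the prior-removed fold changes, with Benjamini-Hochberg adjustment over 8982 genes whose mean reached 100 in every table. KDM4C fell short of that mean in SK-N-FI, so 9 of the 10 genes entered, in 3 contrasts. The mean effect in the sensitive lines differed from that in SK-N-BE(2) for 7 of 9 genes, 5 with a positive and 2 with a negative difference, where 59.1% of all genes differed, 26.4% positive and 32.6% negative. KDM3A had a mean log2 fold change of 0.64 in the sensitive lines and -0.17 in SK-N-BE(2), a difference of 0.80 ± 0.0879 (adjusted p = 9.22e-19). That mean covers a fall in IMR5 cells, and the difference was 1.45 without IMR5 and 0.30 without SK-N-FI. KDM5B differed by 0.38 ± 0.0802 (adjusted p = 1.03e-05), and by 0.26 to 0.59 when 1 sensitive line was left out. Those 2 genes kept their call whichever sensitive line was left out.

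The other 5 differences each lost their call without at least 1 line. KDM2B, with -0.37 in the sensitive lines and -0.08 in SK-N-BE(2), differed by -0.28 ± 0.0913 (adjusted p = 0.00454), and by -0.14 without LAN5 and -0.21 without IMR5 (adjusted p = 0.223 and 0.0752), while it was -0.50 without SK-N-FI. KDM3B differed by -0.29 ± 0.0786 (adjusted p = 6e-04), against -0.19 without LAN5 (adjusted p = 0.0884). JMJD1C differed by 0.33 ± 0.0846 (adjusted p = 0.000313), against 0.15 without IMR5 (adjusted p = 0.217). KDM4A differed by 0.27 ± 0.0989 (adjusted p = 0.0143), against 0.09 without LAN5 and 0.19 without IMR5 (adjusted p = 0.515 and 0.176), while it was 0.52 without SK-N-FI. KDM4B differed by 0.35 ± 0.0848 (adjusted p = 0.000121), against 0.12 without SK-N-FI (adjusted p = 0.222). For KDM2A and KDM5A the differences were 0.02, with a 95% interval from -0.12 to 0.16, and -0.07, with an interval from -0.24 to 0.10. Both rest on opposite effects: KDM2A differed by -0.18 without SK-N-FI and by 0.27 without IMR5 (adjusted p = 0.0141 and 0.00543), and KDM5A by -0.28 without LAN5 (adjusted p = 0.01).

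Among the sensitive lines, the mean of LAN5 and IMR5 differed from SK-N-FI for 6 of 9 genes, 1 positive and 5 negative, where 47.2% of all genes differed, 18.9% positive and 28.4% negative. The differences called were -1.53 ± 0.141 for KDM3A (adjusted p = 3.09e-25), -0.69 ± 0.128 for KDM4B (adjusted p = 7.37e-07), -0.64 ± 0.125 for KDM2B (adjusted p = 1.92e-06) and -0.59 ± 0.144 for KDM2A (adjusted p = 0.000183). That of KDM3A was -2.31 without LAN5 and -0.75 without IMR5, since its effects in these lines were opposite, and that of KDM2A was -0.91 without LAN5. KDM5B followed with -0.34 ± 0.131 (adjusted p = 0.0216), which was -0.65 without LAN5, a call that was lost without IMR5 at -0.03 and with each line centred on its median gene at -0.29, and that of KDM2A was lost without IMR5 at -0.28 (adjusted p = 0.105). KDM4A was the gene with a positive difference, 0.76 ± 0.177 (adjusted p = 9.96e-05). KDM5A, at 0.30 with an interval from 0.03 to 0.57, missed the threshold (adjusted p = 0.0639) and passed it without IMR5, at 0.62, and with centred lines, at 0.35. KDM3B at -0.23, from -0.54 to 0.08, and JMJD1C at 0.05, from -0.31 to 0.41, were not called. The value of JMJD1C was 0.38 without LAN5 and -0.28 without IMR5, and that of KDM5A was -0.02 without LAN5. SK-N-FI is the single line here without MYCN amplification, so MYCN status cannot be told apart from other properties of that line.

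LAN5 and IMR5, which share the MYCN amplification, differed from each other for 6 of 9 genes, 4 positive and 2 negative, where 61% of all genes differed, 27.3% positive and 33.7% negative. KDM3A differed most, by 1.55 ± 0.106 (adjusted p = 3.98e-47). KDM5A differed by 0.63 ± 0.101 (adjusted p = 1.93e-09), KDM2A by 0.62 ± 0.0957 (adjusted p = 4.75e-10), KDM5B by 0.62 ± 0.0976 (adjusted p = 1.23e-09), JMJD1C by -0.67 ± 0.112 (adjusted p = 1.31e-08) and KDM3B by -0.26 ± 0.0901 (adjusted p = 0.00773). With each line centred on its median gene KDM3B lost its call, at -0.19, and KDM4A gained one, at 0.27. No call was made for KDM2B at -0.12, with an interval from -0.33 to 0.08, for KDM4A at 0.20, from -0.03 to 0.42, or for KDM4B at -0.17, from -0.39 to 0.05.

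**Figure D4:**
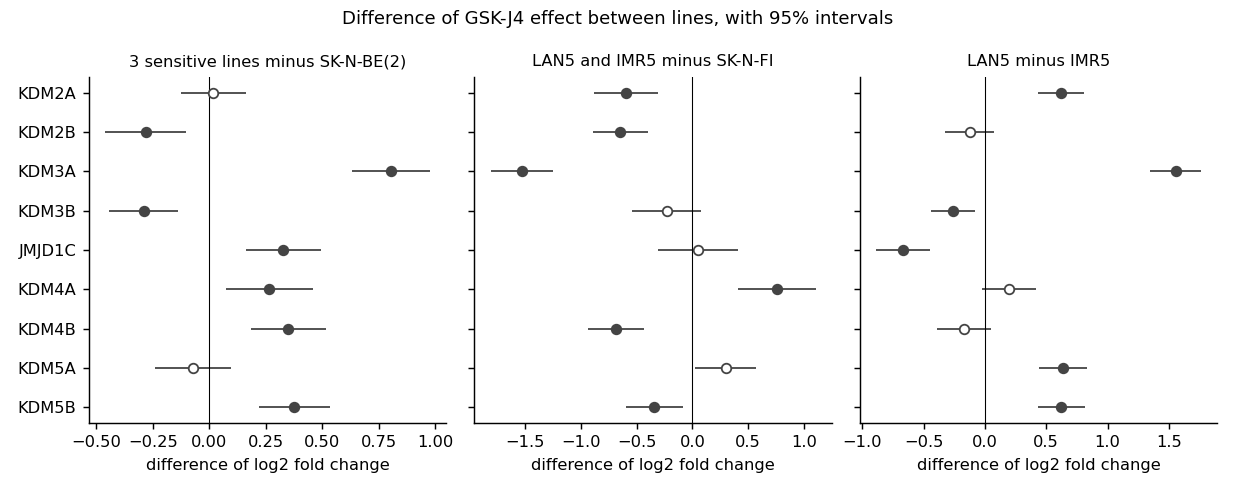
Difference of the GSK-J4 effect (x axis, log2 scale, first-named minus second-named lines) for the 9 genes tested (y axis) in 3 contrasts; bars are 95% intervals and filled points have an adjusted p under 0.05. KDM3A has the difference farthest from 0 in each panel, at 0.80, -1.53 and 1.55.

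KDM4C was tested with the mean lowered to 20 in every table, a setting chosen after its level was seen, which let 11516 genes enter. The difference was 0.74 ± 0.211 for sensitive minus resistant lines (adjusted p = 0.00127). It was -2.10 ± 0.431 for LAN5 and IMR5 minus SK-N-FI (adjusted p = 8.17e-06) and -0.37 ± 0.228 for LAN5 minus IMR5 (adjusted p = 0.158). The first of these rests on SK-N-FI, whose effect was 2.06 at a mean count of 24.2. The IMR5 effect of 0.14 lay above the resistant line's -0.08, and the LAN5 effect of -0.225 lay below it. Leaving out a line was not run for KDM4C. The share of the 11516 genes called at this setting is not given, so these calls have no background.

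The 19 other JmjC-domain genes of a chosen list were described in the same way. In LAN5 5 rose and 7 fell of 19 tested, in IMR5 cells 6 rose and 8 fell of 18, in SK-N-FI 5 rose and 5 fell of 19, while none of 18 was called in SK-N-BE(2) by the authors' Wald test (1 at an unadjusted p under 0.05). These counts, and those of the lists that follow, stand beside the shares of all tested genes called, 41.7%, 44.1%, 31.6% and 2.48% in the same order of lines, or 67%, 69.6%, 49.1% and 2.87% of genes whose mean reached 100. Here 5 of the 18 genes tested in all 3 sensitive lines were called in 1 direction, beside 10.8% of all 18599 genes tested in them. That share includes weakly expressed genes and was not taken for genes whose mean reached 100. KDM6A and KDM6B, the targets of the compound, were higher, with KDM6B at 0.55 ± 0.0776 in LAN5 cells, 1.18 ± 0.0907 in IMR5 cells and 0.85 ± 0.152 in SK-N-FI cells. KDM8, also called JMJD5, the ribosomal oxygenase gene RIOX1 and JMJD8 were lower, with RIOX1 at -1.08 ± 0.126 in LAN5 cells, -0.64 ± 0.135 in IMR5 cells and -1.23 ± 0.245 in SK-N-FI cells. KDM8 had -1.31 ± 0.207, -1.45 ± 0.271 and -1.31 ± 0.345, and JMJD8 had -1.22 ± 0.17, -1.37 ± 0.244 and -1.01 ± 0.251, in the same order of lines. In IMR5 HR, a JmjC gene of the hair follicle that is also expressed in brain, moved most of the list, at 1.65 ± 0.144.

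Enzymes that write or otherwise erase the same marks were also counted. Of 6 H3K9 methyltransferase genes 4 fell in LAN5 cells, 2 rose and 2 fell in IMR5 cells, and 1 fell in SK-N-FI, where the gene that fell in every one of these lines was SUV39H2, at -0.77 ± 0.0847, -0.99 ± 0.0819 and -0.83 ± 0.117 in the same order. Of 7 H3K36 methyltransferase genes 5 fell in LAN5 cells, 4 fell and 1 rose in IMR5 cells, and 3 fell and 1 rose in SK-N-FI. NSD1, NSD2 and SETMAR fell in each of the 3 lines, and NSD2 had -1.05 ± 0.0553 in LAN5 cells, -0.47 ± 0.0598 in IMR5 cells and -0.38 ± 0.133 in SK-N-FI cells. The 6 H3K4 methyltransferase genes had 3 falls in LAN5 cells, 2 rises and 3 falls in IMR5 cells, and 2 rises in SK-N-FI. KDM1A, the flavin-dependent H3K4 demethylase LSD1, fell in all 3 sensitive lines, with -0.99 ± 0.0609 in LAN5 cells, -0.56 ± 0.0568 in IMR5 cells and -0.53 ± 0.0942 in SK-N-FI cells, while KDM1B rose in IMR5 at 0.38 ± 0.101 and fell in SK-N-FI at -0.58 ± 0.127. None of these 21 genes was called in SK-N-BE(2) by the authors' Wald test (2 at an unadjusted p under 0.05).

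Partners of the demethylases were counted as well. Of 9 PRC1.1 genes that work with KDM2B, 2 rose and 4 fell in LAN5 cells, 4 rose and 4 fell in IMR5 cells, 4 rose and 1 fell in SK-N-FI, and 1 fell in SK-N-BE(2). PCGF1, the subunit that defines the complex, had -0.57 ± 0.108 in LAN5 cells, 0.98 ± 0.111 in IMR5 cells, 0.76 ± 0.145 in SK-N-FI cells and -0.35 ± 0.0948 in SK-N-BE(2), where it was the gene that fell. USP7, a deubiquitinase, was lower in each sensitive line, at -0.38, -0.59 and -0.30. Among 16 SIN3 and KDM5-complex genes 2 rose and 10 fell in LAN5 cells, 5 rose and 8 fell in IMR5 cells, 5 rose and 4 fell in SK-N-FI, and none was called in SK-N-BE(2) by the authors' Wald test (1 at an unadjusted p under 0.05). The 12 and 13 of 16 called in LAN5 and IMR5 are near the background of 67% and 69.6%. ARID4A rose in each sensitive line, at 0.60 ± 0.0786, 0.77 ± 0.0847 and 0.60 ± 0.13, and RBBP4, RBBP7, MORF4L1 and EMSY fell in each, with RBBP4 at -0.55 ± 0.0618, -0.42 ± 0.0572 and -0.52 ± 0.0877.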

How the data were processed

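Polyadenylated RNA of 4 neuroblastoma lines was sequenced from stranded libraries, per the labels' protocols. Per the submitters' processing notes, FastQC, STAR and DESeq2 were used with hg38, with no version stated. Which tool counted reads, and whether by strand, is not given in the sources used here. Nothing says that replicates were separate cultures, so p-values measure the spread between libraries, which may be technical. The authors deposited 1 table per line. The signal is the mean of counts normalized by the authors. The log2 fold change, its log2 standard error, the Wald score, the p-value and the adjusted p-value are as deposited by the authors.

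The direction was read from BBC3, MT2A and SLC30A1, and every SK-N-FI value rests on a short file name close to that line's. In SK-N-BE(2) the deposited score differed from fold over error by more than 1e-04 for 19488 genes. The deposited folds are shrunken, with largest standard errors of 0.539, 0.490, 0.428 and 0.0828 for LAN5, IMR5, SK-N-FI and SK-N-BE(2). Prior precision was taken as the inverse square of 2 times that value, and fold and error were solved per gene. Of 2 solutions, the one with the smaller error was used for genes past the peak of the median error over a sliding window of 501 genes (a mean of 134 in SK-N-BE(2)). Group levels assume 3 libraries per group. The difference test was tested on data simulated with the same prior equations and with normal errors. Such data cannot show whether these equations, or the choice between the 2 solutions by mean count, hold for the deposited values. Positions and transcript lengths are from GENCODE 29 (GRCh38), matched by Ensembl ID, and 17 RefSeq promoter windows matched the 10 genes by symbol. Python 3.11.15, pandas 2.3.3 and SciPy 1.17.1 were used.

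The members and lists were chosen with earlier results of these data known. All 10 members are named. Of a list, the gene with the largest deposited change in a line, or those called in 1 direction in all 3 sensitive lines, could be named. Pattern neighbours are the 3 genes nearest to the member with the widest range of fold changes. Alternatives were other thresholds, filters, centring, priors and leaving out a line.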

Additional observations from a re-analysis of the deposited data

Results flagged for a closer look

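A difference of effect between lines passed the Wald test on prior-removed values (adjusted p under 0.05 over 8982 genes) in 19 cases among 27. For sensitive minus resistant lines these were KDM3A at 0.80, KDM5B at 0.38, KDM4B at 0.35, JMJD1C at 0.33, KDM4A at 0.27, KDM2B at -0.28 and KDM3B at -0.29. For the mean of LAN5 and IMR5 minus SK-N-FI they were KDM4A at 0.76, KDM5B at -0.34, KDM2A at -0.59, KDM2B at -0.64, KDM4B at -0.69 and KDM3A at -1.53. For LAN5 minus IMR5 they were KDM3A at 1.55, KDM5A at 0.63, KDM2A at 0.62, KDM5B at 0.62, KDM3B at -0.26 and JMJD1C at -0.67. The background over all genes was 59.1%, 47.2% and 61% in the same order. No group has values of 4 or more single libraries, so no library could be examined for standing apart.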

How the results depend on the processing

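Of 46 recomputed counts of called genes, 45 stayed within 1.5 times the reported count. With an absolute log2 fold change of at least 0.5 required as well, 4 genes in place of 7 were called in IMR5. Among the recomputed single-gene results 397 kept their direction and call, 20 lost a call, 9 gained one and 6 changed sign. Settings that altered only a threshold or a filter reused the same fold change, so direction could not change there. All 6 sign changes came from leaving out a line and from a difference that had not been called. For sensitive minus resistant lines KDM2A, at 0.02, was -0.18 without SK-N-FI (adjusted p = 0.0141) and -0.038 without LAN5, and KDM5A, at -0.07, was 0.037 without IMR5 and 0.028 without SK-N-FI. For LAN5 and IMR5 minus SK-N-FI, JMJD1C, at 0.05, was -0.28 without IMR5 and KDM5A, at 0.30, was -0.019 without LAN5. Centring LAN5 on its median gene called KDM2A at 0.19 and JMJD1C at 0.16, and KDM4B in IMR5 was called at 0.20 when centred and with an adjustment over genes with a mean of at least 100. For the 9 genes of the difference tests, no call was lost or gained with the prior kept, with another estimate of the prior, or with a mean of at least 20, 50 or 500. At a mean of at least 20 KDM4C entered as well and was called, which gave 8 in place of 7 for sensitive minus resistant lines and 7 in place of 6 for LAN5 and IMR5 minus SK-N-FI. No paired analysis was possible because the tables hold no value per library, and for the same reason leaving out single replicates was not run. Depth per library is unknown.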
